A study of Drosophila melanogaster with 6 samples.

Results

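A group of 9 genes of DNA replication, the cell cycle and chromosome structure was followed in Drosophila melanogaster material given methotrexate: RPA1, Orc5, Cdc45, RecQ4, CycD, Rbf, glu, SMC1 and barr. They are 9 of the 7347 genes named on either of the study's array designs. All 9 were on the S3 design (of 6795 genes) and 5 were on the ovary design (of 2377 genes): RecQ4, Rbf, glu, SMC1 and barr. They were picked by name after mean ratios of these same arrays were known, so their values are a description, and nothing rests on them having been picked. Where calls of the 9 in limma's test over all genes are given below, they are not read as evidence about the 9.

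The S3 cells, a Schneider line grown in culture, received 0 or 5.2e-08 M methotrexate for 4 days. Ovaries came from flies kept on 0 or 5 ppm of the drug for 5 days. Each 2-colour spotted cDNA array carried treated and untreated RNA of the same material, on 4 arrays for S3 and 2 for ovary. Genotype, strain, age, pooling of flies and separate cultures are not given in the sources used here, so the spread between arrays may be technical. Per the labels the treated RNA carried Cy3 on S3 arrays 1, 3 and 4 and Cy5 on S3 array 2. It carried Cy5 on both ovary arrays, although the series' own text speaks of swapped dyes, so on those labels a dye effect and a treatment effect in ovary cannot be told apart. By channel number, the treated RNA was channel 1 on ovary array 1 and channel 2 on ovary array 2, and channel 2 on each S3 array. If the ratios run by channel number, the 2 ovary arrays have opposite orientations, and their mean would not follow the treatment. Which holds is not stated. The ovary holds germline and somatic cells, and in bulk RNA fewer cells of a type and less RNA per cell cannot be told apart. A ratio table gives no expression level, so neither the cell line nor the ovary could be checked by the level of its marker genes. None of the 7 germline and 9 follicle cell markers listed was named on the ovary design.

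Methotrexate blocks dihydrofolate reductase and so limits the supply of thymidylate and purines for DNA synthesis. Replication begins where the origin recognition complex loads the MCM helicase, which Cdc45 and the GINS complex activate, and the single-stranded DNA that is unwound is coated by RPA. Cyclin D with its kinase and the retinoblastoma proteins control the passage from G1 into S phase, while cohesin holds sister chromatids together and condensin compacts them for mitosis. In the fly ovary, nurse and follicle cells copy their DNA without dividing, so replication genes are in use there apart from mitosis.

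All values below are log2 ratios of the 2 channels, with the base taken as 2 because none is stated. Which channel was the numerator is not settled, so a ratio is given by its sign alone, which does not say whether treated or untreated RNA was higher. Each S3 array was centred on its median and then print block by print block (48 blocks). Each ovary array was also centred on the 22 row positions of its 32 blocks. Array 2 of each group was left as deposited. With blocks centred, the 6 pairs of S3 arrays correlated at r between 0.0616 and 0.179 across 6764 genes. With array medians only, r ran from -0.188 (arrays 1 and 2) to 0.205 (arrays 1 and 3), and arrays 2 and 3 stood at -0.079. The ovary pair correlated at 0.814 with blocks centred and at 0.758 with blocks and rows centred, across 2377 genes. Genes are not independent replicates. Neighbouring duplicate spots differed by a median of 0.338 to 0.403 on the S3 arrays and by 0.221 and 0.229 on the ovary arrays.

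In S3 cells the replication genes RPA1 and Orc5 lay furthest from 0 among the 9, both on the negative side of every array. RPA1, the large subunit of the single-strand binding complex, had log2 ratios of -0.95, -0.42, -0.67 and -0.49 on arrays 1 to 4. All 4 arrays lay on 1 side, and the mean was -0.63 ± 0.24 (SD, n = 4), a ratio of 1.55 between the channels. Its spread was below the median SD of 0.365 over all 6764 genes. Of those genes 174 had a lower mean, and 60 (0.887%) were at or below -0.42 on each of the 4 arrays, RPA1 among them. In the 2 spots of RPA1 every one of the 8 values was negative, from -0.25 to -1.20.

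Orc5, a subunit of the origin recognition complex, had log2 ratios of -1.61, -1.30, -0.70 and -0.18. The mean was -0.95 ± 0.64 (SD, n = 4) with only 41 genes lower, but the values ran from far below 0 to near it. On array 4 the gene ranked in the middle of the table (41.0% of genes lower), against 0.44% on array 1. Its 2 spots parted on array 3, where 1 stood at -1.65 and the other at 0.24. Without array 1 the mean log2 ratio of Orc5 was -0.73, and without array 4 it was -1.21.

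The sign of array 2 is the weak point of both means. The 3 arrays that share a dye orientation do not depend on it, and their mean was -0.70 ± 0.24 for RPA1 and -0.83 ± 0.73 for Orc5 (log2 ratio, SD, n = 3 each). With array 2 turned, the means of the 4 arrays were -0.42 for RPA1 and -0.30 for Orc5. With array medians alone the means were -0.64 for RPA1 and -0.95 for Orc5 as deposited, and -0.25 and -0.30 with array 2 turned. Block centring moved single arrays of RPA1, where the block median taken off was 0.40 on array 1 and -0.35 on array 2.

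**Figure D1:**
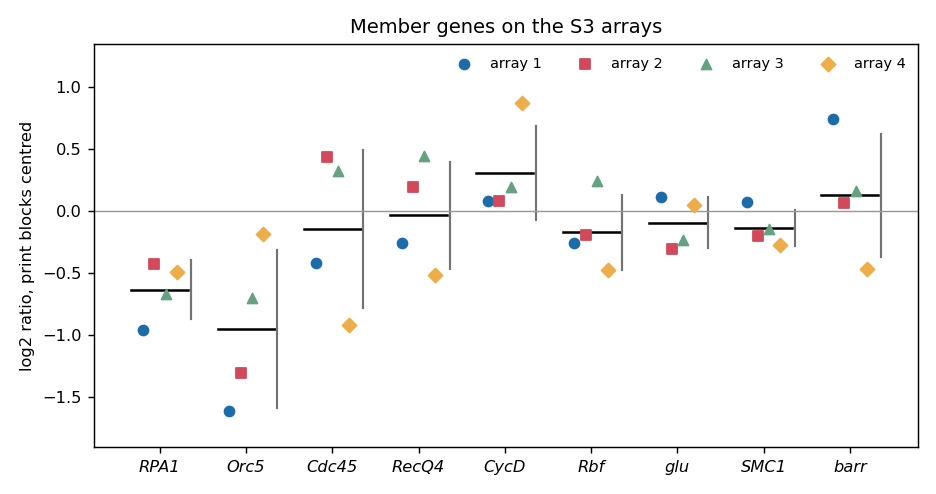
Log2 ratios of the 9 genes on S3 arrays 1 to 4 (symbols) after centring of print blocks, with the mean (black bar) and 1 SD either side of it (grey line, n = 4). RPA1 and Orc5 were negative on all 4 arrays and CycD was positive on all 4, with array 4 of CycD at 0.87, while the other 6 genes had values on both sides of 0.

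The 2 helicase genes split between the arrays. Cdc45, a component of the replicative helicase, had log2 ratios of -0.41, 0.44, 0.32 and -0.92, with a mean of -0.14 ± 0.64 (SD, n = 4). RecQ4, the fly homologue of a human helicase that takes part in replication initiation, had -0.25, 0.20, 0.45 and -0.51, with a mean of -0.03 ± 0.43 (SD, n = 4). Both genes were negative on arrays 1 and 4 and positive on arrays 2 and 3, so neither mean stands for its arrays. The duplicate spots of Cdc45 had the same sign on all 4 arrays, and those of RecQ4 on 2.

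Of the G1 regulators, CycD leaned to the positive side and Rbf to the negative side. CycD, which encodes cyclin D, had log2 ratios of 0.09, 0.08, 0.20 and 0.87 on arrays 1 to 4. The mean of 0.31 ± 0.38 (SD, n = 4) came mostly from array 4, and without that array it was 0.12. The 2 spots of CycD had opposite signs on array 1 (-0.10 and 0.27) and on array 2 (0.26 and -0.09). With array medians only, array 2 of CycD was at -0.13 and the mean at 0.36. Rbf, a retinoblastoma protein that represses E2F targets, had -0.26, -0.19, 0.25 and -0.47, with a mean of -0.17 ± 0.30 (SD, n = 4). Its 2 pairs of spots, in different print blocks, had means of -0.30 ± 0.39 and -0.04 ± 0.24 (SD, n = 4 arrays each).

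The means of the condensin and cohesin genes were near 0 in S3 cells, though barr varied widely between arrays. The condensin ATPase gene glu, also known as Smc4, had log2 ratios of 0.12, -0.31, -0.23 and 0.05 (mean -0.09 ± 0.21, SD, n = 4). The cohesin ATPase gene SMC1 had 0.07, -0.20, -0.14 and -0.27 (mean -0.13 ± 0.15, SD, n = 4). Both means were smaller than the median absolute mean of 0.177 over all genes. SMC1 owed its small spread to averaging, since its 2 spots had the same sign on only 1 of 4 arrays and differed by up to 1.59. For barr, the condensin subunit that links the ATPase heads, the values were 0.75, 0.07, 0.17 and -0.47 (mean 0.13 ± 0.50, SD, n = 4). The sign of its mean turned without array 1, at -0.08.

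Over the 11 spot pairs of the 9 genes on the S3 arrays, both spots had the same sign in 28 of 44 comparisons, and in 10 of 10 over the 5 pairs on the ovary arrays. Of the 9 genes 3 had 1 sign on all 4 S3 arrays, where 19.5% of all genes did (9.55% all negative and 9.91% all positive). In limma's test over all 6764 genes 0 of the 9 passed an adjusted p of 0.05, and 0% of all genes did. Without adjustment, 644 of all genes had a p below 0.05.

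**Figure D2:**
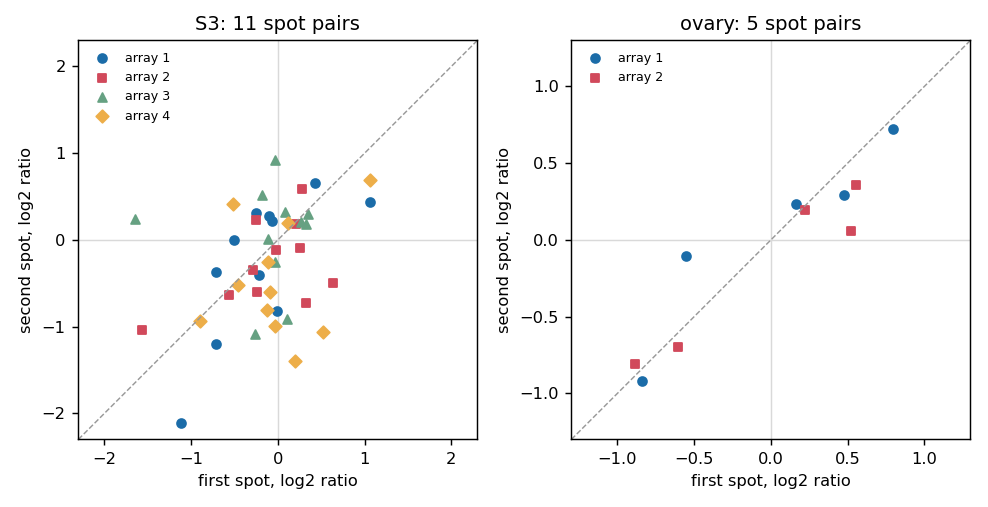
Log2 ratio of the first against the second spot of each duplicate pair of the 9 genes, 11 pairs on 4 S3 arrays (left) and 5 pairs on 2 ovary arrays (right), with the line of equality dashed and the main centring of each design. Spots of a pair fell on opposite sides of 0 often on the S3 arrays (28 of 44 of the same sign) and never on the ovary arrays.

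Of the 119 genes in lists of origin and helicase factors, fork proteins, G1 and S regulators, mitotic regulators and chromosome structure, 74 were measured on the S3 arrays. None passed limma's test over all genes in either direction, as 0% of all genes did. Their median log2 ratio was -0.03 with 40 of 74 negative, beside a median of -0.01 and 50.8% negative over all genes. RPA1 and Orc5 were compared with 65 listed genes that are not among the 9, whose means ran from -0.84 (plu) to 0.80 (Rca1). Orc5 lay below that range and RPA1 within it.

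The partners of RPA1 in its complex were also on the negative side. RPA3, the small subunit, had log2 ratios of -0.59, -0.44, -0.32 and -0.84 (mean -0.55 ± 0.22, SD, n = 4, limma adjusted p = 0.459). RPA2, the middle subunit, which was singled out after its values were seen, had -0.34, -0.22, -0.47 and -0.02 (mean -0.27 ± 0.19, SD, n = 4, limma adjusted p = 0.620). All 3 subunits of RPA were thus negative on each of the 4 arrays, where 9.55% of all genes were. The grouping was made after the values were seen, and none of the 3 passed. Around RPA3 the other 22 spots of its print row had medians of -0.35, -0.03, -0.64 and -0.68 on arrays 1 to 4 after block centring, and around RPA1 0.04, 0.32, 0.04 and 0.33. RPA2 had 2 pairs of spots. One pair was at -0.46, -0.43, -0.90 and -0.02, with neighbours at -0.36, -0.12, -0.12 and -0.13. The other was nearer to 0, at -0.23, -0.02, -0.05 and -0.03, with neighbours at -0.11, 0.21, -0.16 and 0.13. The neighbours of RPA1 thus lay near 0 or on the positive side, while those of RPA3 were negative on each array and, on array 3, further from 0 than RPA3 itself.

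Orc5 shared its side with 1 further origin recognition subunit. Orc4 had log2 ratios of -0.81, -0.52, -0.25 and -0.55 (mean -0.53 ± 0.23, SD, n = 4, limma adjusted p = 0.468). Orc1, at a mean of -0.06, and Orc2, at 0.33 through a single value of 2.03 on array 1, had both signs. Of 4 measured subunits 2 were negative on every array, where 9.55% of all genes were.

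Helicase genes beside Cdc45 pointed both ways. Mcm5, an MCM subunit, was negative on 4 of 4 arrays, at -0.52 ± 0.49 (SD, n = 4, limma adjusted p = 0.509). The GINS gene Psf3 was at 0.38 ± 0.26 and positive on 4 of 4, while its partner gene Psf2 was at -0.42 ± 0.39 with array 1 at 0.09 (SD, n = 4 each, limma adjusted p of 0.543 and 0.542). Of the 13 origin and helicase genes measured 9 were negative, at a median of -0.07.

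The 17 fork genes had a median of -0.13 with 10 negative. Their positive side was led by Fen1, the flap endonuclease of lagging-strand synthesis, at 1.10, 0.21, 0.14 and 1.45 (mean 0.72 ± 0.65, SD, n = 4, limma adjusted p = 0.491). The gene of the large subunit of chromatin assembly factor 1, a histone chaperone that follows the fork, was at 0.33 ± 0.25 and the clamp loader gene RfC4 at 0.36 ± 0.47 (SD, n = 4 each, limma adjusted p of 0.586 and 0.606), both positive on 4 of 4 arrays. The RfC4 mean came mostly from array 4, at 1.06.

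Among the 10 G1 and S genes 8 were positive, at a median of 0.12, with Rbf and CycE the negative ones. Cdk2, the kinase of cyclin E, was at 0.48 ± 0.36 and positive on 4 of 4 arrays (SD, n = 4, limma adjusted p = 0.509). Cdk7, the CDK-activating kinase, was at 0.49 ± 0.92, from -0.62 to 1.26. The gene of its partner CycH (0.13 ± 0.18) and CycC (0.14 ± 0.42), another cyclin gene of the list, had both signs (SD, n = 4 each, limma adjusted p of 0.621 to 0.830 for Cdk7, CycH and CycC). Cdk4, the kinase of cyclin D, was not measured.

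The 18 mitotic genes had a median of -0.05. The lowest was plu, a regulator of the early embryonic S phase, at -0.91, -1.19, -0.78 and -0.46 (mean -0.84 ± 0.30, SD, n = 4, limma adjusted p = 0.218). Incenp, of the chromosomal passenger complex, was at -0.46 ± 0.45 and fzy, the Cdc20 activator of the anaphase-promoting complex, at -0.39 ± 0.39, each negative on 4 of 4 arrays (SD, n = 4 each, limma adjusted p of 0.535 and 0.563). Rca1, an inhibitor of that complex, had a mean of 0.80 ± 1.61 (SD, n = 4) that came from 3.16 on array 1, with array 2 at -0.48.

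The 16 cohesin and condensin genes measured, glu, SMC1 and barr included, had a median of 0.08 and means from -0.28 to 0.34. The ends were SMC3, the partner of SMC1, at -0.28 ± 0.35, and the cohesin regulator gene pds5 at 0.34 ± 0.21, positive on 4 of 4 arrays (SD, n = 4 each, limma adjusted p of 0.645 and 0.563). MCPH1 was at 0.25 ± 0.36 and the condensin gene Cap-D3 at -0.14 ± 0.18 (SD, n = 4 each, limma adjusted p of 0.680 and 0.794). None of the 6 measured condensin genes had 1 sign on all 4 arrays, where 19.5% of all genes did.

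**Figure D3:**
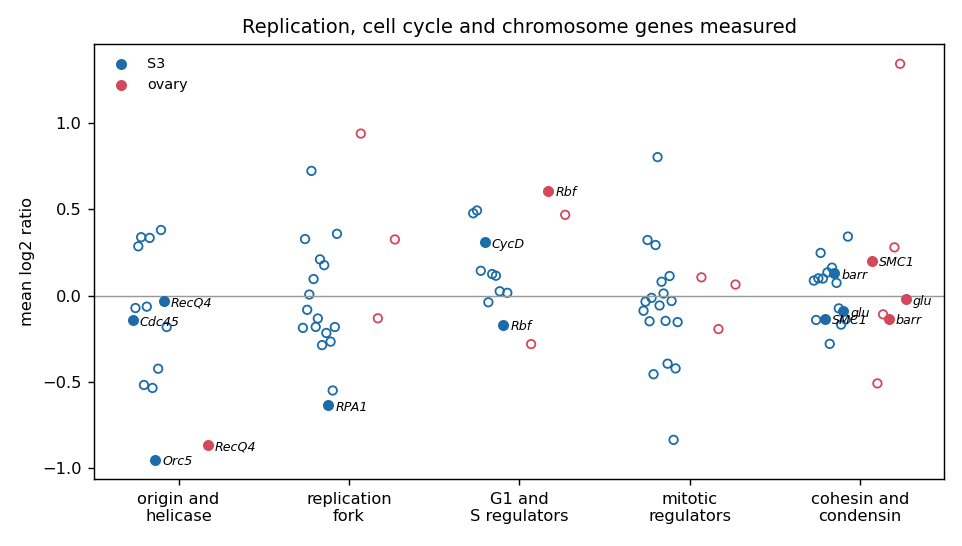
Mean log2 ratio of each measured gene of the 5 lists on the S3 arrays (blue, n = 4) and the ovary arrays (red, n = 2), with filled symbols and names for the 9 genes and open symbols for the rest. The cohesin and condensin genes of S3 cells kept between -0.28 and 0.34, while RPA1 and Orc5 lay at or below -0.63, and the ovary gene at the top is eco at 1.34.

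On the ovary arrays the ratios of the 5 genes changed with the centring. Rows of the print blocks differed widely, with row medians from -0.72 to 1.05 on array 1 and from -0.44 to 0.62 on array 2 after block centring. With array medians only, 4 of the 5 passed limma's test (3 positive, 1 negative), where 39% of all 2377 genes did (20.9% positive, 18% negative). With blocks only, all 5 passed (3 positive, 2 negative), where 49.1% of all genes did (24.6% positive, 24.5% negative). After centring of blocks and rows 2 of 5 passed, Rbf positive and RecQ4 negative, where 32.3% of all genes did (422 genes or 17.8% positive, 345 genes or 14.5% negative). With that same centring and array 2 turned, 0 of 5 passed, where 0% of all genes did. With every block's rows centred separately, an alternative chosen once the data had been seen, only RecQ4 passed, where 25.9% of all genes did (14.7% positive, 11.1% negative). With no centring at all the split over all genes was 559 positive and 284 negative. The rule that picked the genes had used these contrasts, so nothing is read from their counts. The median of all ovary genes was -0.14 with array medians only and -0.02 with blocks and rows centred.

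With blocks and rows centred RecQ4 was the furthest from 0 of the 5, while with array medians or blocks only it was the nearest. Its log2 ratios after centring of blocks and rows were -0.88 and -0.85 on arrays 1 and 2, a mean of -0.86 ± 0.03 (SD, n = 2), with 139 of 2377 genes lower. The 2 spots ranged only from -0.81 to -0.92. RecQ4 was negative under each centring, at -0.58 with array medians, -0.56 with blocks and -1.16 with each row of each block centred on its own median. Limma did not call it with array medians only or with no centring, where 39% and 35.5% of all genes passed. With array medians RecQ4 had 531 of 2377 genes below it. In its own row, 18 of the other 22 spots were positive on both arrays, so the gene stood on the other side of 0 from its neighbours. With array 2 turned, its values cancelled to -0.02.

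Rbf was next, at 0.76 and 0.46, a mean of 0.61 ± 0.21 (SD, n = 2), with 389 genes higher. Its spots all were positive, from 0.36 to 0.80. But 17 of the other 22 spots of its row in its block were positive on both arrays too, with medians of 1.16 and 0.64 after block centring, against 0.93 and 0.62 for Rbf itself. Once each such row was centred alone, Rbf had log2 ratios of -0.10 and -0.02, a mean of -0.060 ± 0.063 (SD, n = 2).

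The cohesin gene SMC1 had log2 ratios of 0.20 and 0.21, a mean of 0.20 ± 0.01 (SD, n = 2). It had stood at 0.75 with array medians only, and the median of its row position, 0.58 and 0.52 on the 2 arrays, made up most of that. The other spots of its own row were near 0 after block centring (medians 0.01 and 0.10), and with each row centred alone SMC1 was at 0.52 ± 0.01 (SD, n = 2). The size of its ratio thus hung on which spots set the row's zero, while both arrays stayed positive under each centring.

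The condensin genes glu and barr had no single sign left after row centring. glu had log2 ratios of -0.33 and 0.29, a mean of -0.02 ± 0.44 (SD, n = 2), against 1.13 and 0.54 with array medians. Its spots lay in the first row, whose medians of 1.05 and 0.27 were taken off. Of the other 22 spots in that row of its block 19 were positive on both arrays and 0 were negative on both. For barr the values were 0.39 and -0.65, a mean of -0.13 ± 0.73 (SD, n = 2), against -0.50 and -0.96 with array medians. It lay in row 21, whose medians were -0.72 and -0.44, and 18 of its 22 row neighbours were negative on both arrays. The 2 arrays of barr differed by more than its duplicate spots did on either (0.18 at most).

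**Figure D4:**
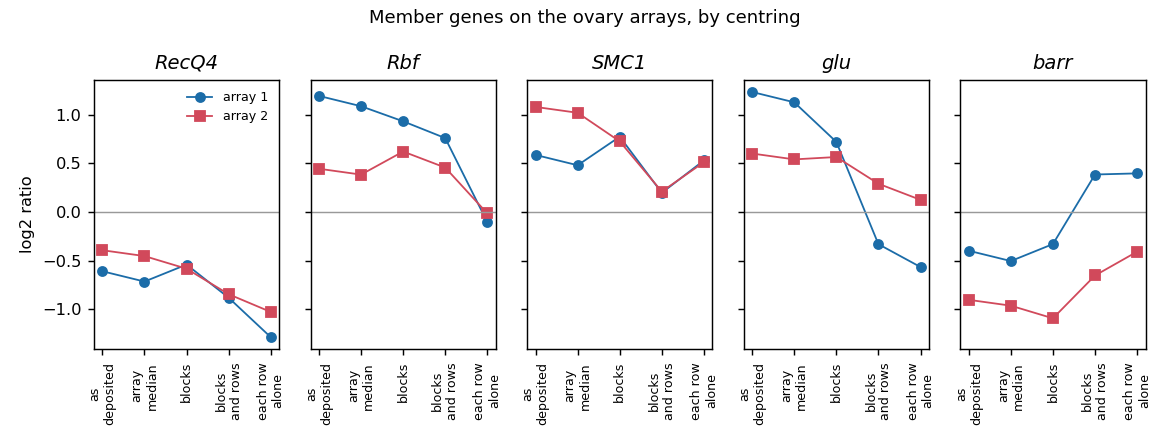
Log2 ratios of RecQ4, Rbf, SMC1, glu and barr on ovary arrays 1 and 2, from the deposited values (left of each panel) through centring by array median, by block and by block and row to each row of each block alone. RecQ4 moved away from 0, to -1.16 on average, Rbf moved to -0.060, and the arrays of glu and of barr parted to opposite sides.

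Of the 119 listed genes 17 were measured on the ovary arrays, 12 of them outside the 9. Of these 12, limma called 2 positive and 0 negative (16.7%, beside 32.3% of all genes). The cohesin acetyltransferase gene eco had log2 ratios of 1.39 and 1.29, or 1.34 ± 0.07 on average (SD, n = 2, limma adjusted p = 4.58e-07). Its 2 pairs of spots lay in different rows and were far apart, at 2.25 and 2.08 in 1 row and 0.53 and 0.51 in the other. The large subunit gene of chromatin assembly factor 1 was at 1.13 and 0.75, or 0.94 ± 0.27 on average (SD, n = 2, limma adjusted p = 5.56e-04). Both calls held under each centring. They fell short with array 2 turned (limma adjusted p = 0.999 for each) and when either array was left out, in a fit where the lone array was assumed to vary like the S3 arrays (limma adjusted p from 0.0897 to 0.437).

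The other fork genes, Prim2 of the primase (0.33 ± 0.08) and PolE1 of the leading-strand polymerase (-0.13 ± 0.13), were short of the threshold (SD, n = 2 each, limma adjusted p of 0.310 and 0.718). So was ago, which encodes the F-box protein that marks cyclin E for degradation, at 0.47 ± 0.15 over 2 pairs of spots that disagreed (-0.48 and -0.07 against 1.2 and 1.22), and Cdk7 at -0.28 ± 0.47 (SD, n = 2 each, limma adjusted p of 0.115 and 0.395). The meiotic cohesion gene c(2)M was at 0.28 ± 0.28 and Incenp at 0.11 ± 0.61 (SD, n = 2 each, limma adjusted p of 0.397 and 0.775).

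Of the 17 listed genes 6 lay in row 21 of their blocks: barr, SMC3, SMC6, Cdk7, plu and png. With array medians only, all 6 were negative, among them SMC3 at -0.98, SMC6 at -0.85, Cdk7 at -0.75 and plu at -0.66, and limma called these 4 (adjusted p from 0.00274 to 0.0444). It also called barr at -0.73, so 5 of the 6, but not png at -0.40, where 18% of all genes were called negative. After row centring SMC3 was at -0.51 ± 0.35, SMC6 at -0.11 ± 0.05, plu at -0.19 ± 0.08 and png at 0.06 ± 0.05 (SD, n = 2 each), and limma called none of the 6 (adjusted p from 0.0831 for SMC3 to 0.869 for png). Of all genes 32.3% passed with that centring, in either direction. SMC1 and SMC3, whose proteins form 1 complex, stood at 0.75 and -0.98 on array medians, and at 0.20 and -0.51 with blocks and rows centred.

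No gene of the 9 measured on both designs had values of 1 sign on all S3 arrays. RecQ4, at -0.86 in ovary, was at -0.03 in S3 cells with both signs, and Rbf, at 0.61 in ovary, was at -0.17. The designs were normalised apart and the numerator of each is unknown, so these values stand side by side and the difference was not tested.

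**Figure D5:**
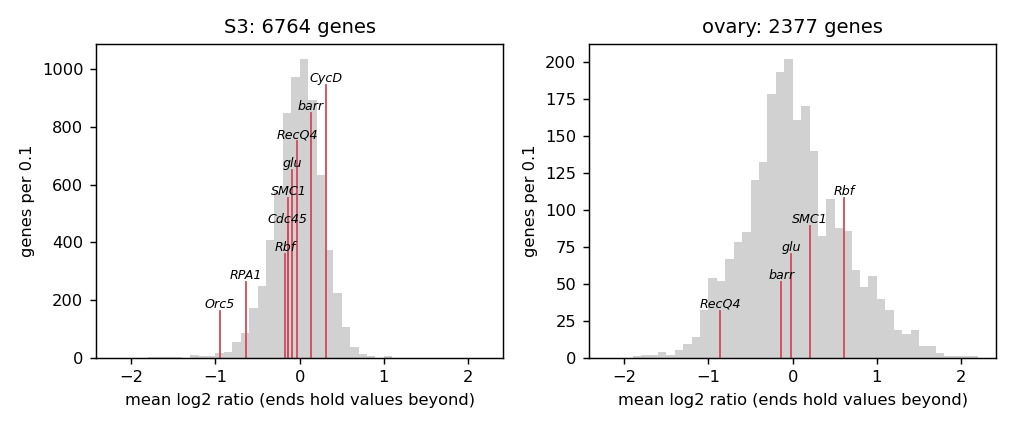
Number of genes per 0.1 of mean log2 ratio (grey) on the S3 arrays (6764 genes, blocks centred) and the ovary arrays (2377 genes, blocks and rows centred), with the measured genes of the 9 as red lines whose height has no meaning. RPA1 and Orc5 lay in the lower tail in S3 cells, with 174 and 41 genes lower, and RecQ4 lay in the lower tail in ovary, with 139 genes lower.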

How the data were processed

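The files analysed hold 1 deposited log2 ratio per spot and array for 6 arrays (27648 spots on the S3 design, 16896 on the ovary design). For these log2 ratios the authors' background correction, normalisation, base and numerator are not stated in the labels. The deposited medians per array lay between -0.02 and 0.18. Precision is limited by how few arrays there are.

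Spots with 1 gene (15116 and 5666) were named through the platform annotation and updated by Entrez number to symbols of Release 6 of the fly genome. The layout of blocks and rows is not stated in the labels and was read from the values. Arrays were centred on medians, then blocks, then, for ovary, the 22 row positions over all blocks. Spots of a gene were averaged, and a two-sided test of the mean against 0 used limma 3.58.1 (lmFit and eBayes, under R 4.3.3) on genes present on every array, each design alone, and p-values were adjusted by Benjamini-Hochberg over all genes. The 2 ovary arrays leave 1 residual degree of freedom, and the prior gave every gene one common spread there, so ovary p-values hardly use a gene's own replicate error. The script was tested on simulated data. A first simulation, with noise from raw per-gene SDs, missed its recovery target, and the one kept draws noise from limma's moderated SDs, so it checks the code and not the power on these arrays. Python 3.11.15, pandas 2.3.3 and matplotlib 3.10.9 were used.

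The 9 genes, the lists and the centring were chosen with earlier results of these data known. Beside the 9, up to 4 genes per list and design were named by smallest p. Alternatives were other centrings, the sign of array 2, equal scale, single spots, robust eBayes, a dye term, genes on 3 of 4 arrays, a threshold of 0.10 and each array left out. Centring each row of each block alone and a joint fit of both designs were added after seeing the data. The planned centring of rows within blocks could be read either way. Both readings had been computed, and the values of the 9 genes under both seen, before the row position over all blocks was kept as the main one. The call of Rbf in ovary depends on that choice, and is also lost in the joint fit. No genomic positions or sequences are printed.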

Additional observations from a re-analysis of the deposited data

Results flagged for a closer look

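CycD on S3 array 4 stood apart from the other arrays, at a log2 ratio of 0.87 against 0.08 to 0.20 on the others. RfC4 also stood apart on S3 array 4, at 1.06 against 0.06 to 0.19. The gap to the nearest array, as a share of the whole range, was above 0.829 for these 2 of 34 genes looked at on the S3 arrays, and chance gives about 1 in 20.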

How the results depend on the processing

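No paired analysis was possible between S3 and ovary arrays, because their replicate numbers name different material. Treated and untreated RNA share each array, so each log2 ratio already pairs them, and limma tested the mean of these ratios against 0. In S3 cells 0 genes passed with blocks centred, 3 with array medians only, 5 with no centring, 2 with equal scale, 1 with a dye term and 9 at an adjusted p under 0.10 (limma). With 1 S3 array left out 0 to 1 genes passed. None of the 9 passed under any S3 alternative. RPA1, Orc5, CycD and SMC1 kept the sign of their mean under all 14 S3 alternatives, from -0.74 to -0.25 for RPA1 and from -1.21 to -0.30 for Orc5, while Cdc45, RecQ4, Rbf, glu and barr each changed sign under 1 to 5 of them. In ovary 767 genes passed with blocks and rows centred, 1166 with blocks only, 4445 spots when single spots were tested, 0 with array 2 turned (also 0 at an unadjusted p under 0.05), 268 of 1815 in the joint fit, where RecQ4 passed and Rbf did not, and 0 to 11 there with 1 array left out. RecQ4 was negative under all 10 ovary alternatives, but only at -0.02 with array 2 turned. Several of the 10 could not change its sign. Robust eBayes and the joint fit left its mean as it was, and equal scale only rescaled each array. With both arrays negative, leaving 1 out could not turn it either. Rbf reversed, to -0.060, with each row of each block centred alone, and the cause was not tested. The mean of glu changed sign under 5 of 10 alternatives, that of barr under 2 and that of SMC1 under 1. The values analysed hold no signal over background, so dim spots could not be set aside.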

Other observations

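Markers of other cell types were sparse on both designs. On the S3 arrays the germline list had 5 of 7 genes, with aub at a mean log2 ratio of -1.15 ± 0.66 and osk at -0.55 ± 0.20, both negative on 4 of 4 arrays, and otu at 0.75 ± 0.57, positive on 4 of 4 (SD, n = 4 each, limma adjusted p of 0.218, 0.458 and 0.458). Of the 9 follicle cell and eggshell genes the 3 measured had means from -0.20 to 0.06, and the 3 hemocyte genes means from -0.30 to -0.15. The 3 fat body genes lay from -0.39 to 0.37 and the muscle gene Act88F at 0.09, and limma called no marker gene on the S3 arrays. On the ovary arrays 2 of 5 hemocyte markers were named, Pxn at 1.22 ± 0.49 and NimC1 at -0.85 ± 0.17, which passed on opposite sides (SD, n = 2 each, limma adjusted p of 5.51e-06 and 0.00184). The muscle gene up was at -0.83 ± 0.26 (SD, n = 2, limma adjusted p = 0.00251) and Act88F at 0.21 ± 0.61 (limma adjusted p = 0.549, SD, n = 2). The fat body gene apolpp was at -0.31 ± 0.24 (SD, n = 2, limma adjusted p = 0.332). The call of up was lost with array medians only, with blocks only, with no centring and with each row of each block centred alone, and that of NimC1 with array medians only and with no centring. All 3 calls were lost with array 2 turned. Those of Pxn and NimC1 were lost with either array left out, and up, which is not on the S3 design, was not in that fit. The part of other cells in the ratios of the 9 genes was not tested.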
